A study of Mus musculus with 4 samples.

Results

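The heat shock chaperones of the cytosol and mitochondria were compared in livers labelled Control and Dph1 KO, 24 hr (1 day) after the carcinogen diethylnitrosamine (DEN). The genes were taken by symbol: the HSP70, HSP90, HSP60, HSP10, HSP110 and small heat shock protein genes, the J-domain genes (Dnaja, Dnajb and Dnajc), the subunits of the chaperonin CCT, the heat shock factor genes Hsf1 and Hsf2, and the co-chaperone gene Bag3. Pseudogenes named as such and the main chaperones of the endoplasmic reticulum, such as Hspa5 and Hsp90b1, were left out. This gave 83 of 35522 table entries, for 82 genes, since Cct6a is listed as 2 entries. The selection by symbol keeps 8 genes with products known in the endoplasmic reticulum, among them Hspa13 and Dnajc10. All libraries came from livers of strain C57BL/6 treated with DEN and carried the genotype label Control (n = 2) or Dph1 KO (n = 2). The labels do not give age or sex, how or in which cells Dph1 was deleted, or whether each library came from its own animal, so the tests rest on the spread among these 4 libraries, part or all of which may be technical. Livers without DEN were not analysed here.

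Heat shock proteins keep other proteins folded. HSP70 binds unfolded stretches of a client and releases them on ATP hydrolysis, J-domain proteins bring the client and start that hydrolysis, and HSP110 and BAG proteins exchange the nucleotide. HSP90 matures kinases and steroid receptors, HSP60 with HSP10 and CCT enclose a client in a barrel, and small heat shock proteins hold unfolded proteins until HSP70 takes them over. HSF1 is the transcription factor that raises many of these genes when proteins unfold, through heat shock elements, which are repeats of GAA and its inverse TTC. Dph1 makes diphthamide, a modified histidine of the elongation factor eEF2.

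The libraries held 19474596 to 21137358 reads in genes. Levels are given as CPM (a gene's share of the library's gene reads, scaled between libraries by TMM) for comparisons between genotypes and as the authors' TPM (per transcript length) for comparisons between genes. Dph1 had 70.3 and 68.3 CPM in Control and 17.8 and 31.5 CPM in Dph1 KO. The 9 hepatocyte markers summed to 83093 and 99737 CPM in Control and 68664 and 71795 CPM in Dph1 KO, with 1 of 9 lower at the threshold. This was Apoa1, at 26414 and 33265 CPM against 6265 and 9499 CPM (-1.92 on the log2 scale, adjusted p = 0.0161 by edgeR), while Alb had at least 26632 CPM in every library. The sums include Apoa1 at these levels. Of the 9 markers, 4 had a log2 fold change above 0 and 5 below. Apob (0.85) and Fgb (0.84) were the highest and were not called (adjusted p = 0.101 and 0.0689 by edgeR). Kupffer cell and macrophage markers (9 of 10 matched) summed to 419 and 434 CPM in Control and 249 and 466 CPM in Dph1 KO. Of these 9, 1 was lower at the threshold (Cd68), and 3 had a log2 fold change above 0. Endothelial markers (7) summed to 198 to 221 CPM with none called. Stellate and fibroblast markers (8) summed to 160 to 190 CPM with 2 lower (Des and Col1a1). Of these 8, 2 lay above 0, with Lrat at 0.84 on the log2 scale, not called (adjusted p = 0.0662 by edgeR). Bile duct markers (5) summed to 18.9 to 34.4 CPM with none called. Lymphocyte markers (7) summed to at most 5.67 CPM with 1 of 3 tested lower (Cd79a), and neutrophil markers (5) to at most 2.23 CPM with none of 2 called. The erythroid marker Alas2 lay near 80 CPM in every library. These counts stand beside 4.86% of all tested genes called higher and 7.47% called lower. In bulk liver, fewer cells of a type and less RNA per cell cannot be told apart.

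Heat shock elements were looked for in the RefSeq promoter windows of build GRCm38.p6, from 250 bases before to 50 bases after each start site, which were matched for 65 of the 82 genes. The 2-unit element was searched as GAANNTTC or TTCNNGAA. The 3-unit element was searched as GAA and TTC units in alternation, starting with either, with NN between neighbouring units. Both searches cover both strands, and every 3-unit element contains 2-unit ones. Only exact units were searched, so longer elements that hold an altered unit were neither counted nor marked. A 3-unit element was found for 4 of the 65 genes (6.15%), against 0.662% of 27025 genes in the promoter table, and a 2-unit element for 21 (32.3%), against 17.0%. The genes with a 3-unit element were Hspd1, Hspe1, Hsph1 and Dnajb6. The stretches below are those of the twin genes Hspa1a and Hspa1b, of which 1 was called and 1 was not, of the interval between Hspd1 and Hspe1, which point away from each other, and of Dnaja4, called higher. Capitals mark the exact elements found, and all stretches are written 5′ to 3′ on the gene's own strand. For Hspa1a (minus strand, chr17:34972157-34972406) and Hspa1b (minus strand, chr17:34959239-34959488), these are the 250 bases before the start site, and 247 of the 250 are identical.
Hspa1a: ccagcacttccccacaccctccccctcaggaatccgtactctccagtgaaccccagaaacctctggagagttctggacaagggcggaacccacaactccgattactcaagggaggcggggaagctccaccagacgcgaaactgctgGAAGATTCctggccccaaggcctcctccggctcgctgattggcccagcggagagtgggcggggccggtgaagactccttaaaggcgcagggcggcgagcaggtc
Hspa1b: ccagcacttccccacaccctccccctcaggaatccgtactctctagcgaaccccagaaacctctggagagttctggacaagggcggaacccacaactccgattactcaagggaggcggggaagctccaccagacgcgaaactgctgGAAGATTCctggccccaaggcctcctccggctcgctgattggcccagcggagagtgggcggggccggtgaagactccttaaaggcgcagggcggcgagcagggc
For Hspe1 (plus strand, chr1:55088053-55088082), the 30 bases hold overlapping 3-unit elements at positions -89 to -72 from its start site. The same bases, read on the other strand, lie at -144 to -127 from a start site of Hspd1.
Hspe1: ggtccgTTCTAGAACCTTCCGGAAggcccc
For Dnaja4 (plus strand), 2 stretches of 30 bases each hold a 2-unit element, at -90 to -83 (chr9:54699458-54699487) and -52 to -45 (chr9:54699496-54699525) from a start site.
Dnaja4, distal: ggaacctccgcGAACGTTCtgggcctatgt
Dnaja4, proximal: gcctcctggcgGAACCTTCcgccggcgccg
Among tested entries with a window, the 19 with a 2-unit element had a median log2 fold change of 0.041 (1 rose, 1 fell) and the 36 without one of 0.25 (1 rose, none fell). The 4 genes with a 3-unit element had a median of -0.041, and none was called. A match describes the letters of the window and does not show that a factor binds there.

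Hsp90ab1 and Hspa8 had the highest TPM of the chaperone genes in both genotypes. The 5 highest entries held 45.5% to 52.8% of the TPM of all 83 entries. In the Control libraries Hsp90ab1, the constitutive cytosolic HSP90, had 618 and 714 TPM, and Hspa8, the constitutive HSP70 (Hsc70), had 630 and 691 TPM. These top levels did not differ beyond their spread, and only 20.7% of Hspa8 reads were unique. The small heat shock protein gene Hspb1 followed at 296 and 472 TPM and Hspb8, the partner of BAG3 in selective autophagy, at 212 and 161 TPM. The mitochondrial genes Hspe1 (HSP10; 173 and 164 TPM), Hspa9 (mitochondrial HSP70, also mortalin; 152 and 162 TPM) and Hspd1 (HSP60; 146 and 157 TPM) came next, and their libraries lay close to or within each other's range. The heat-inducible HSP70 genes were low: Hspa1b had 14.7 and 8.65 TPM and Hspa1a 7.28 and 3.74 TPM in Control. All 83 entries together held 0.395% and 0.417% of TPM in Control and 0.541% and 0.429% in Dph1 KO. The TPM of a library sum to a fixed total and are not used for differences between genotypes.

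**Figure D1:**
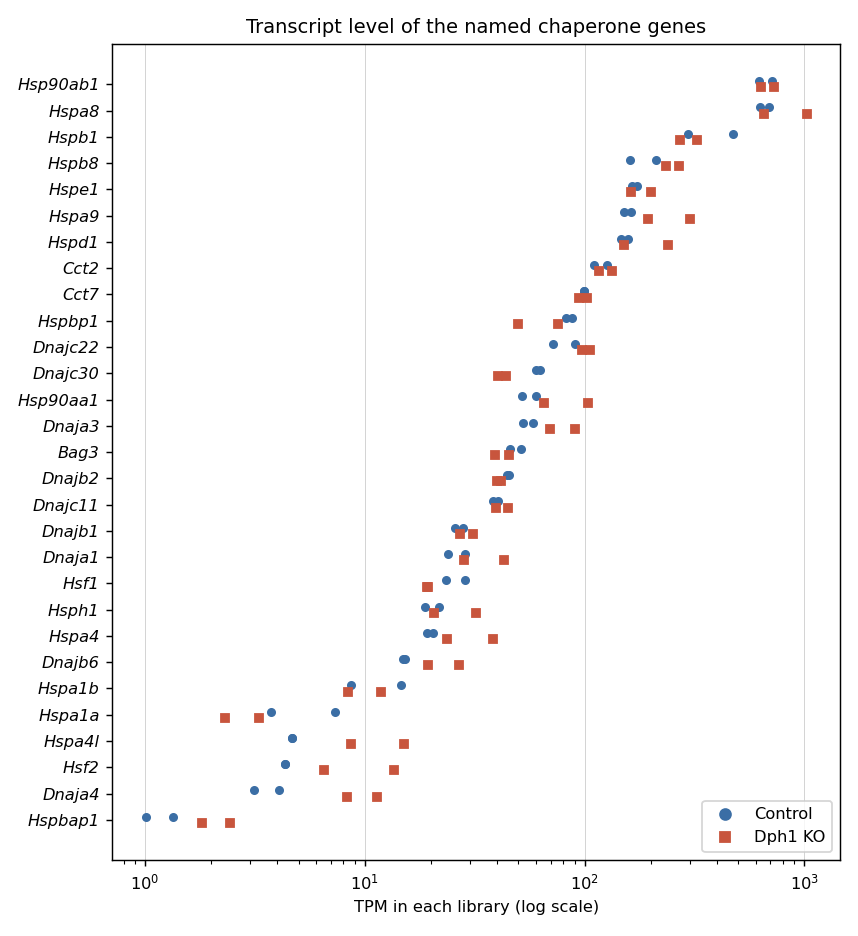
TPM (log axis) of 29 named chaperone genes in each library, Control as circles and Dph1 KO as squares, ordered by the Control mean. Hsp90ab1 and Hspa8 stand at the top in both genotypes, at 618 TPM or more in every library, and the stress-inducible Hspa1a and Hspa1b at 14.7 TPM or less.

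Few chaperone genes differed between the genotypes. Of the 83 entries 69 passed the count filter and were tested, and 2 rose, 3 fell and 64 were not called (quasi-likelihood test of edgeR, p adjusted by Benjamini-Hochberg, under 0.05). The called share was 7.25%, against 12.3% of all 13303 tested genes. By direction the background was 4.86% higher and 7.47% lower. Hspa4l and Dnaja4 rose, and Hspa1a, Hsf1 and Dnajc30 fell. At an unadjusted p under 0.05, 12 of 69 entries were above 0 (17.4%) and 9 below (13.0%), against 16.3% and 17.9% of all tested genes. The median log2 fold change of the tested entries was 0.086, against 0.041 over all tested genes. Both Dph1 KO libraries lay on one side of both Control libraries for 48 of 69 entries (28 above, 20 below), or 69.6%, against 67.4% of all tested genes. An exact two-sided permutation test of 2 libraries against 2 cannot give a p below 0.333, and each call therefore leans on the spread edgeR shares across genes.

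**Figure D2:**
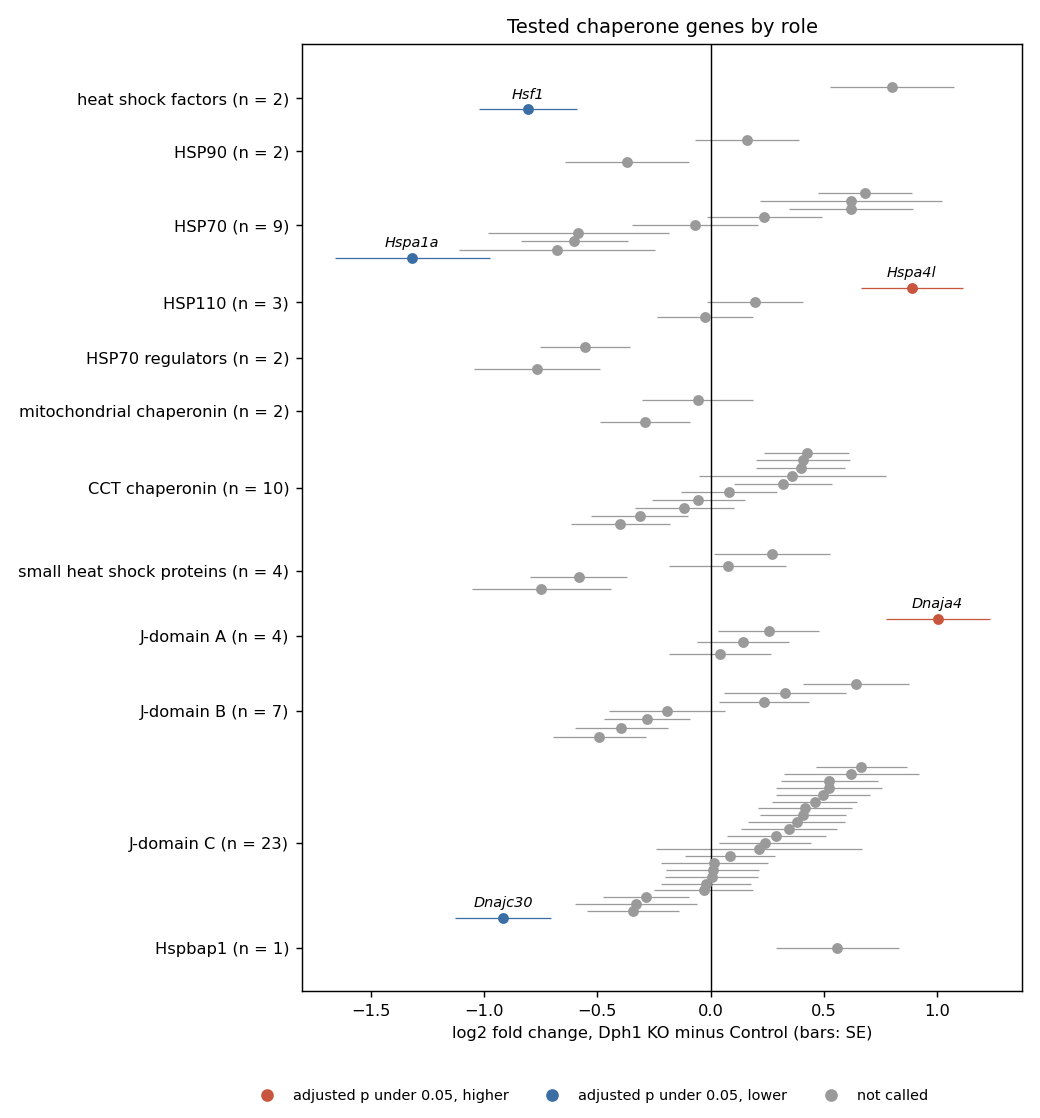
Log2 fold change (Dph1 KO minus Control, horizontal axis, bars are SE) of the 69 tested entries, in rows by role; coloured points have an adjusted p under 0.05. The 5 called genes lie at the ends of the range, from Hspa1a at -1.32 to Dnaja4 at 1.00, and the other 64 between -0.76 and 0.80.

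Of the heat shock factor genes, Hsf1 fell and Hsf2 was not called. Hsf1, the factor of the heat shock response, had 32.9 and 42.9 CPM in the Control livers and 19.2 and 24.1 CPM in the Dph1 KO livers. Both Dph1 KO libraries lay below both Control libraries, and Hsf1 fell (-0.81 on the log2 scale, SE 0.22, adjusted p = 0.0397 by edgeR). The call was lost without Control replicate 1 (-0.99, adjusted p = 0.0546 by edgeR), without Control replicate 2 (-0.60, adjusted p = 0.335 by edgeR) and with scaling by library totals alone (-0.55, adjusted p = 0.0746 by edgeR). Hsf2, a related factor that forms mixed trimers with HSF1, had 9.90 and 10.01 CPM in Control and 22.4 and 12.3 CPM in Dph1 KO. Its Dph1 KO libraries were both higher but far apart, and it was not called (0.80 on the log2 scale, SE 0.28, adjusted p = 0.0741 by edgeR). Hsf2 passed the threshold with no count filter (0.79, adjusted p = 0.0435 by edgeR), with library totals alone (1.08, adjusted p = 0.00984 by edgeR) and without Dph1 KO replicate 2 (1.18, adjusted p = 0.000949 by edgeR). With the GC and length offset described further on, Hsf2 was at 0.19 (adjusted p = 0.508 by edgeR) and Hsf1 at -0.60 (adjusted p = 0.0571 by edgeR). With the offset from the protein-coding transcript, Hsf2 was at 0.34 (adjusted p = 0.291 by edgeR) and Hsf1 at -0.29 (adjusted p = 0.256 by edgeR).

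Of 12 textbook targets of HSF1, none rose, 1 fell and 11 were not called, against a background of 4.86% higher and 7.47% lower. Their median log2 fold change was -0.29, or -0.25 with the GC and length offset. Without the offset, 10 were below 0 (83.3%, against 47.3% of all tested genes) and 2 above 0. At an unadjusted p below 0.05, 4 of the 12 were below 0 (33.3%), against 17.9% of all tested genes. Hspa1a, which encodes the classical stress-induced HSP70, was the one that fell. It had 238 and 131 reads in the Control libraries against 69 and 114 for Dph1 KO, or 12.9 and 7.29 CPM against 2.92 and 5.21 CPM. Its Dph1 KO libraries were both lower, but Control replicate 2 and Dph1 KO replicate 2 lay close to each other. The difference was -1.32 on the log2 scale (SE 0.34, adjusted p = 0.0365 by edgeR). The call was lost without Control replicate 1 (-0.85, adjusted p = 0.208 by edgeR) and without Dph1 KO replicate 1 (-0.94, adjusted p = 0.0656 by edgeR).

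Hspa1b, whose product is nearly the same HSP70 and whose promoter is printed above, had 26.2 and 16.9 CPM in Control and 15.0 and 13.4 CPM in Dph1 KO. It was lower in both Dph1 KO libraries and was not called (-0.60 on the log2 scale, SE 0.24, adjusted p = 0.106 by edgeR). Hspa1b was at -0.26 without Control replicate 1 and at -0.060 with the GC and length offset. The reads of the twins were hard to tell apart, since 39.7% of Hspa1a reads and 42.3% of Hspa1b reads matched 1 place only. With unique reads alone, Hspa1a had 98 and 51 reads in the Control libraries against 26 and 44 for Dph1 KO and was again called (-1.40 on the log2 scale, adjusted p = 0.0471 by edgeR). Hspa1b reads were 2.02 and 2.32 times those of Hspa1a in Control and 5.14 and 2.56 times in Dph1 KO. The difference between the twins was not tested.

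The other inducible genes were not called. Dnajb1 (HSP40), the main J-domain partner of inducible HSP70, had 40.7 and 41.0 CPM in Control and 32.3 and 35.0 CPM in Dph1 KO. Bag3, which links HSP70 to small heat shock proteins, had 89.0 and 86.1 CPM in Control and 58.3 and 61.0 CPM in Dph1 KO. For both genes the Dph1 KO libraries lay below the Control libraries, and the log2 fold changes were -0.28 for Dnajb1 and -0.55 for Bag3 (adjusted p = 0.305 and 0.0828 by edgeR). With the GC and length offset they were -0.12 and -0.13. Hsph1, the inducible HSP110, had 43.6 and 54.2 CPM in Control and 53.1 and 43.0 CPM in Dph1 KO, and the genotypes overlapped. Dnaja1, a farnesylated J-domain protein, overlapped as well, with 93.3 and 119 CPM against 119 and 99.0 CPM, and 34.8% of its reads were unique.

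**Figure D3:**
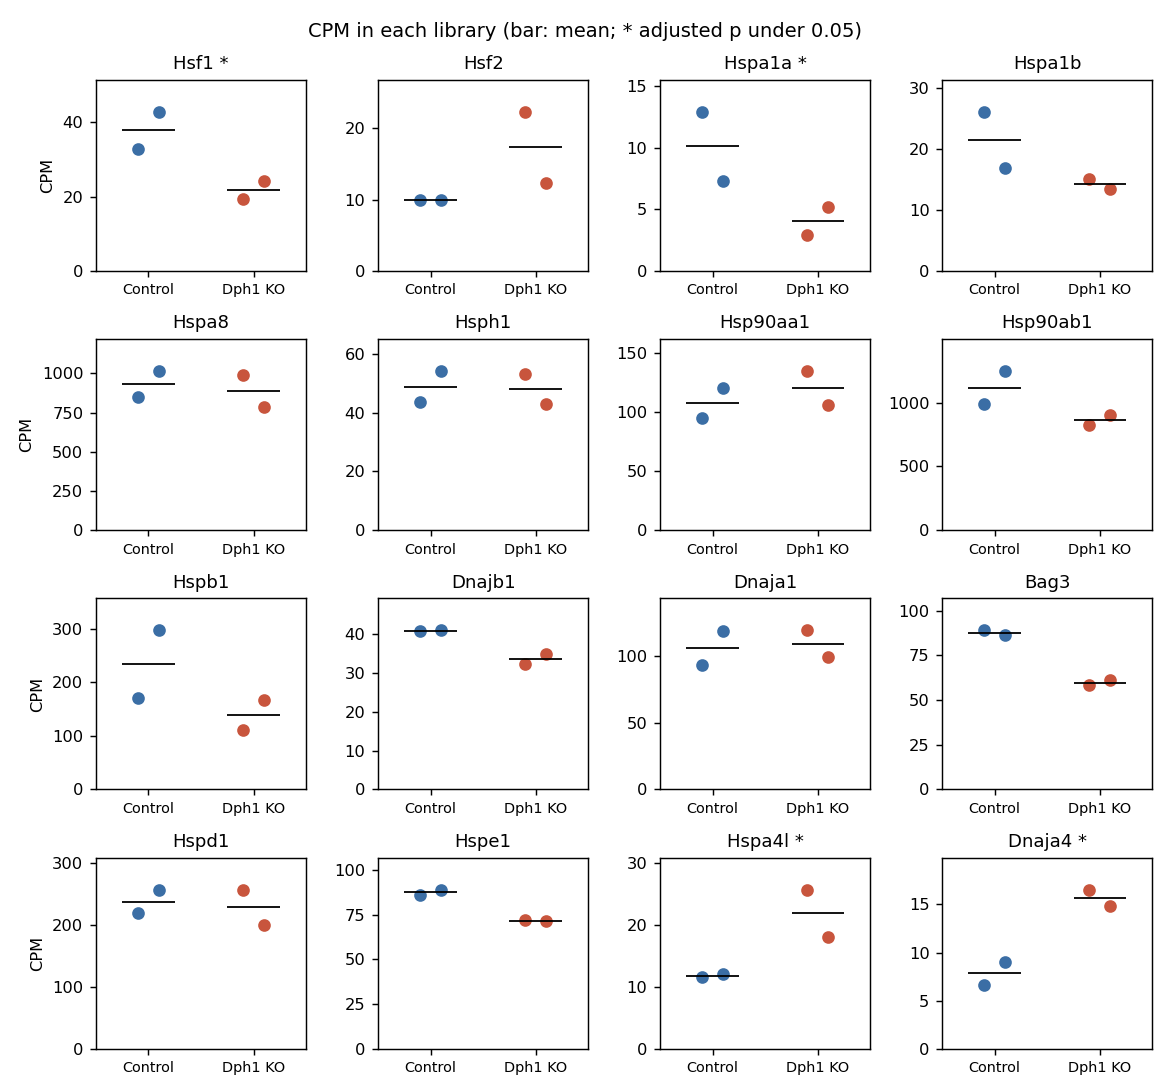
CPM in each library (points) with the genotype mean (bar) for the heat shock factors, the 12 HSF1 targets and both called higher genes; each panel starts at 0 and a star marks an adjusted p under 0.05. The Dph1 KO points lie below the Control points for Hsf1, Hspa1a, Hspa1b, Hsp90ab1, Hspb1, Dnajb1, Bag3 and Hspe1, and above them for Hsf2, Hspa4l and Dnaja4. Of the 12 HSF1 targets, 7 did not overlap between genotypes (58.3%), against 67.4% of all tested genes.

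In the HSP70 family and its HSP110 exchange factors, 12 of 13 genes were tested, and 1 rose and 1 fell (16.7%, against 12.3% of all tested genes). Hspa4l, an HSP110 relative also called Apg1, had 11.6 and 12.1 CPM in Control and 25.8 and 18.1 CPM in Dph1 KO. Both Dph1 KO libraries were above both Control libraries, and Hspa4l rose (0.89 on the log2 scale, SE 0.22, adjusted p = 0.0343 by edgeR). Its call was lost without Control replicate 1 (0.86, adjusted p = 0.149 by edgeR) and without Control replicate 2 (0.91, adjusted p = 0.144 by edgeR). Its close relative Hspa4 (Apg2) had 63.1 and 65.0 CPM against 82.4 and 64.5 CPM, where only Dph1 KO replicate 1 stood apart, and was not called (log2 fold change 0.20). Hspa8 had 848 and 1016 CPM in Control and 991 and 787 CPM in Dph1 KO and overlapped between genotypes (-0.07 on the log2 scale, adjusted p = 0.879 by edgeR). Only 20.7% of Hspa8 reads were unique, and the unique share was 16.5% and 16.3% for Control against 24.1% and 24.2% for Dph1 KO. With unique reads alone its log2 fold change was 0.48, not called (adjusted p = 0.173 by edgeR). Hspa9 had 297 and 346 CPM in Control and 421 and 337 CPM in Dph1 KO, with the genotypes overlapping. Hspbp1, which encodes a nucleotide exchange factor of HSP70, had 83.3 and 85.3 CPM in Control and 34.5 and 64.9 CPM in Dph1 KO. It was lower in both, by very different amounts, and was not called (-0.76 on the log2 scale, SE 0.28, adjusted p = 0.0863 by edgeR). DESeq2 put Hspbp1 past the threshold (-0.78, adjusted p = 0.0497), and it was at -0.35 without Dph1 KO replicate 1 and at -0.15 with the GC and length offset.

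Neither cytosolic HSP90 gene was called by edgeR, DESeq2 or limma-voom, and none had an unadjusted p below 0.05 in edgeR. Hsp90ab1 had 987 and 1248 CPM in Control and 826 and 906 CPM in Dph1 KO (-0.37 on the log2 scale, SE 0.27, adjusted p = 0.357 by edgeR). The inducible Hsp90aa1 had 94.9 and 120 CPM in Control and 135 and 106 CPM in Dph1 KO (log2 fold change 0.16, SE 0.23), with 23.8% of its reads unique. In TPM, Hsp90ab1 was 11.9 and 11.8 times Hsp90aa1 in Control and 6.98 and 9.75 times in Dph1 KO. The difference in this ratio between the genotypes was not tested. The transcripts differ in GC content (51.0% for Hsp90ab1 and 43.7% for Hsp90aa1). With the GC and length offset the log2 fold changes were -0.29 for Hsp90ab1 and -0.19 for Hsp90aa1.

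Among 10 genes with mitochondrial products, 1 fell and 9 were not called, against a background of 4.86% higher and 7.47% lower. Their median log2 fold change was -0.013, or -0.11 with the GC and length offset. The chaperonin genes Hspd1 and Hspe1, which share the interval printed above, were not called, and 58.7% and 58.1% of their reads were unique. Hspd1 had 219 and 257 CPM in Control and 257 and 200 CPM in Dph1 KO (log2 fold change -0.06, SE 0.25). Hspe1 had 85.9 and 89.0 CPM in Control and 71.8 and 71.2 CPM in Dph1 KO, below the Control libraries by a log2 fold change of -0.29 (SE 0.20, adjusted p = 0.316 by edgeR). Dnaja3 (Tid1), the J-domain partner of mortalin, had 102 and 99.4 CPM in Control and 113 and 109 CPM in Dph1 KO and was not called. The gene that fell was Dnajc30, an intronless gene whose product works with the mitochondrial ATP synthase and complex I. It had 46.1 and 48.4 CPM in Control and 21.3 and 28.9 CPM in Dph1 KO, with no overlap (-0.91 on the log2 scale, SE 0.21, adjusted p = 0.0260 by edgeR). Without Control replicate 1 (-0.96, adjusted p = 0.0714 by edgeR) or Control replicate 2 (-0.88, adjusted p = 0.127 by edgeR), Dnajc30 was not called. Dnajc30 overlaps Wbscr22 on the opposite strand, and the sources used here do not say whether counting used strand. Wbscr22 was not called (-0.11 on the log2 scale, adjusted p = 0.710 by edgeR).

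CCT, the barrel that folds actin and tubulin, is built of different subunits encoded by Tcp1 and the Cct genes. None of its 10 tested entries was called by edgeR, DESeq2 or limma-voom, and 1 of the 10 was higher at an unadjusted p under 0.05 in edgeR, against 16.3% of all tested genes. The log2 fold changes ran from -0.40 (Cct7) to 0.43 (Cct6a, second entry), with a median of 0.20, 6 entries above 0 and 4 below, and the median was -0.085 with the GC and length offset. Cct7 had 156 and 170 CPM in Control and 115 and 132 CPM in Dph1 KO (-0.40 on the log2 scale, SE 0.22, adjusted p = 0.218 by edgeR). Cct2 had 160 and 152 CPM in Control and 120 and 131 CPM in Dph1 KO (-0.31 on the log2 scale, SE 0.21, adjusted p = 0.316 by edgeR). For both, the Dph1 KO libraries were below the Control libraries. In TPM, the most and least abundant entries of the ubiquitous complex lay within 2.96-fold and 2.35-fold in the Control libraries. In the Dph1 KO libraries they lay within 1.73-fold and 1.93-fold. Cct6a is split over 2 of these entries, and its second entry was the lowest in Control replicate 2. Cct6b, the testis form of a subunit, was tested with at most 33 reads in a library, and Cct8l1 had 1 read in all.

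Of 8 small heat shock protein genes, 4 were tested and none was called by edgeR, DESeq2 or limma-voom, with 2 of the 4 lower at an unadjusted p below 0.05 in edgeR, against 17.9% of all tested genes. Hspb1 (HSP25 in mouse) had 170 and 297 CPM in Control and 112 and 167 CPM in Dph1 KO. The Control libraries differed more from each other than Control replicate 1 did from Dph1 KO replicate 2. Hspb1 was not called (-0.75 on the log2 scale, SE 0.31, adjusted p = 0.117 by edgeR). Hspb1 was at -0.29 without Control replicate 2 and at 0.038 with the GC and length offset, and 27.1% of its reads were unique. Hspb8 had 250 and 209 CPM in Control and 200 and 283 CPM in Dph1 KO, and the genotypes overlapped (log2 fold change 0.08, SE 0.26).

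The J-domain genes were the largest family, with 34 of 41 tested, of which 1 rose, 1 fell and 32 were not called. Their called share was 5.88%, against 12.3% of all tested genes. Their median log2 fold change was 0.23, with 24 above 0 and 10 below, and the median was 0.029 with the GC and length offset. Dnaja4, a cytosolic partner of HSP70, had 121 and 163 reads in the Control libraries against 390 and 324 for Dph1 KO, or 6.58 and 9.07 CPM against 16.5 and 14.8 CPM. The genotypes were well apart, and Dnaja4 rose 2.00-fold (1.00 on the log2 scale, SE 0.23, adjusted p = 0.0254 by edgeR). The call was lost without Control replicate 1 (0.78, adjusted p = 0.208 by edgeR) and stood without each of the other libraries. Among the abundant members, Dnajb2, a J-domain protein that hands clients to the proteasome, had 94.96 and 101 CPM in Control and 64.5 and 74.8 CPM in Dph1 KO and was not called (-0.49 on the log2 scale, adjusted p = 0.121 by edgeR, and -0.025 with the GC and length offset). Dnajb6, which suppresses aggregation, had 41.5 and 46.9 CPM in Control and 55.7 and 48.4 CPM in Dph1 KO (adjusted p = 0.413 by edgeR). Dnajc22 had 93.2 and 81.5 CPM in Control and 85.2 and 90.7 CPM in Dph1 KO, inside one another's range. Dnajc11, of the mitochondrial outer membrane, had 84.6 and 92.9 CPM in Control and 66.8 and 73.3 CPM in Dph1 KO (adjusted p = 0.251 by edgeR). The 8 genes with products in the endoplasmic reticulum had no call by edgeR, DESeq2 or limma-voom, and 3 of the 8 were higher at an unadjusted p below 0.05 in edgeR, against 16.3% of all tested genes. Their genotypes did not overlap in 8 of 8 genes (67.4% of all tested genes), 6 higher and 2 lower in Dph1 KO, and their median log2 fold change was 0.37, or 0.010 with the GC and length offset. Hspbap1, which the symbol rule takes although it is not a chaperone, had 5.77 and 4.06 CPM in Control and 8.18 and 6.31 CPM in Dph1 KO (adjusted p = 0.168 by edgeR).

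The remaining 14 entries had at most 28 reads over the 4 libraries and were not tested. Among them, the J-domain genes Dnajb8 and Dnajc5g and the small heat shock protein genes Hspb3 and Hspb9 had no read in any library. A count of 0 in a library allows up to 3 reads, for counting error only. Hspa1l, the testis HSP70 next to Hspa1a, had 1 to 3 reads in each library.

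Other parts of the chaperone machinery were compared through 40 partner genes, of which 39 were tested, 1 rose and 3 fell. The called share was 10.3%, against 12.3% of all tested genes. The gene that rose was Clpx, which encodes the unfoldase of the mitochondrial protease ClpXP. Clpx had 25.7 and 31.0 CPM in Control and 111 and 64.4 CPM in Dph1 KO (1.63 on the log2 scale, SE 0.27, adjusted p = 0.00790 by edgeR). Its Dph1 KO libraries were far above Control and also far from each other, and with 1 library left out the log2 fold change ran from 1.21 to 1.99. Hsf4, a heat shock factor best known from the lens, had 37.0 and 45.2 CPM in Control and 15.5 and 19.3 CPM in Dph1 KO and fell (-1.24 on the log2 scale, SE 0.21, adjusted p = 0.00859 by edgeR). The HSP90 co-chaperone gene Fkbp4 had 225 and 220 CPM against 99.0 and 145 CPM and fell by 0.87 on the log2 scale (SE 0.25, adjusted p = 0.0468 by edgeR). Pfdn5, a subunit of prefoldin, which delivers actin and tubulin to CCT, had 152 and 232 CPM against 75.7 and 117 CPM and fell by 1.00 (SE 0.29, adjusted p = 0.0468 by edgeR). Fkbp4 was not called without Control replicate 1 (adjusted p = 0.211 by edgeR), Control replicate 2 (0.224) or Dph1 KO replicate 1 (0.0753), nor Pfdn5 without Control replicate 2 (0.371) or Dph1 KO replicate 1 (0.0758). Clpx and Hsf4 were called with any 1 library left out. None of the other 4 tested prefoldin genes was called by edgeR. Of 13 HSP90 partners, Fkbp4 was the single call (7.69%, against 12.3% of all tested genes), and the 5 BAG family genes had none. At an unadjusted p under 0.05 in edgeR, 4 of the 13 were lower (30.8%, against 17.9% of all tested genes). Another 2 were higher (15.4%, against 16.3%). Of the 5 BAG family genes, 1 was lower and 1 higher at this level (20.0% each). The partner with the highest mean CPM, Bag6, had 400 and 503 CPM in Control and 215 and 305 CPM in Dph1 KO and was not called (adjusted p = 0.0740 by edgeR). In TPM, Bag6 lay below Pfdn5 in Control, at 153 and 176 against 348 and 486.

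Within the chaperone genes, the fold change went with the GC content of the transcript. GC content was first taken from the longest GENCODE transcript of each gene. Across the 69 tested entries its Spearman rho with the log2 fold change was -0.60 and Pearson's r -0.70, against a rho of -0.60 across 13149 tested genes. Genes are not independent replicates, and all points share the same 4 libraries. Of the 23 entries of lowest GC content (36.2% to 45.5%), 20 had a log2 fold change above 0, with a median of 0.32. Of the 23 of highest GC content (50.9% to 61.7%), 19 had a value below 0, with a median of -0.39. Hspa4l, called higher, has a GC content of 39.5%, while Hspa1a, Hsf1 and Dnajc30, called lower, have 58.9%, 53.4% and 54.5%. Dnaja4, called higher, lies at 49.8%.

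A second definition, the longest protein-coding transcript, was tried after these values were seen, because the longest Cct7 transcript is longer than its exons in the deposited table. It gave a stronger relation, with a rho of -0.70 and an r of -0.76 over the 69 entries and a rho of -0.62 over 13149 genes. All 23 entries of the lowest class (39.0% to 46.8%) were then above 0 and 21 of 23 of the highest (51.2% to 61.7%) below 0, the exceptions being Hspb8 and Dnajc22. Since it was chosen with the first result known, both are given.

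With a smooth trend on GC content and length from the longest transcript taken out of each library, 3 entries rose and 2 fell, against a background of 8.66% of all tested genes called (3.83% higher, 4.83% lower). Dnaja4 (0.99 on the log2 scale, adjusted p = 0.0190 by edgeR) and Dnajc30 (-0.57, adjusted p = 0.0415 by edgeR) were the 2 called with and without this step. Hspa4l (0.18, adjusted p = 0.474 by edgeR), Hsf1 (-0.60, adjusted p = 0.0571 by edgeR) and Hspa1a (-0.80, adjusted p = 0.123 by edgeR) were no longer called. Cct7 (-0.71, adjusted p = 0.0490 by edgeR), Dnajc4 (0.57, adjusted p = 0.0494 by edgeR) and Dnajc7 (0.55, adjusted p = 0.0492 by edgeR) passed the threshold in this fit. The median over the 69 entries went to -0.052, and the rho with GC content to 0.050. The trend was fitted on GC content in these same libraries, so the loss of that relation was built in.

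With the protein-coding transcript, 1 entry rose and 1 fell, against 7.93% of all tested genes (3.67% higher, 4.26% lower), and these were Dnaja4 (0.93, adjusted p = 0.0252 by edgeR) and Dnajc30 (-0.60, adjusted p = 0.0357 by edgeR). Cct7 (-0.16, adjusted p = 0.516 by edgeR) and Hsf1 (-0.29, adjusted p = 0.256 by edgeR) were far from the threshold. Dnajc4 and Dnajc7 just missed it (adjusted p = 0.0520 and 0.0577 by edgeR). For Cct7, the GC content is 44.9% in the longest transcript and 54.0% in the protein-coding one. Clpx was called in both fits (1.32 and 1.26, adjusted p = 0.00957 and 0.0112 by edgeR), and Hsf4, Fkbp4 and Pfdn5 in neither. What part GC content had in the results was not tested.

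**Figure D4:**
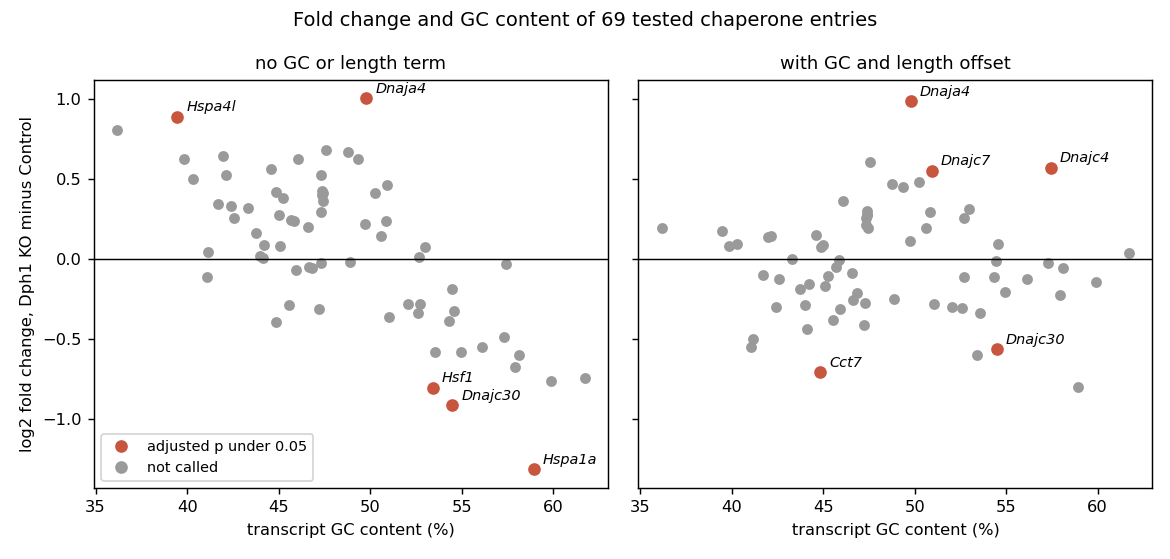
Log2 fold change (Dph1 KO minus Control) against GC content of the longest transcript (%) for the 69 tested entries, without (left) and with (right) a GC and length offset for each library; coloured points have an adjusted p under 0.05. The downward slope on the left (rho -0.60) is not seen on the right (rho 0.050). The trend taken out was fitted on GC content in these same libraries, so the loss of the slope is built in. Dnaja4 and Dnajc30 are still called on the right.

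The 2 Dph1 KO libraries did not differ from Control to the same extent. Dph1 KO replicate 1 lay farther from the Control mean than replicate 2 for 52 of the 69 entries (75.4%) and for 75.7% of all tested genes. Without Dph1 KO replicate 2, 18 of 70 tested entries were higher and 8 lower, where 39.3% of all tested genes were called. Without Dph1 KO replicate 1 the counts were 4 and 2, against 9.74%. Without Control replicate 1 edgeR called no entry, against 5.43%, while 5 were higher and 6 lower at an unadjusted p below 0.05, and DESeq2 was not run on 3 libraries. Without Control replicate 2 the counts were 1 (Dnaja4) and 1 (Hspa1a), against 3.82%. The 8 lower entries without Dph1 KO replicate 2 were Hsf1, Hspa1a, Dnajc30, Bag3, Dnajb2, Hspb1, Hspb6 and Hspbp1. With scaling by library totals alone, which moves the median log2 fold change of all tested genes from 0.041 to 0.30, 18 entries were higher and 2 lower, against 25.7% of all tested genes.

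**Figure D5:**
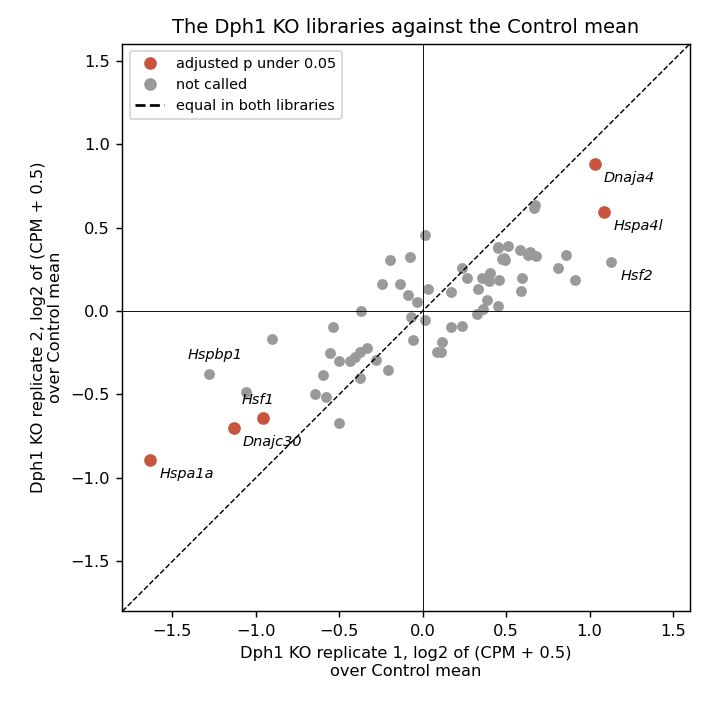
Log2 of (CPM + 0.5) over the Control mean in Dph1 KO replicate 1 (horizontal) and replicate 2 (vertical) for the 69 tested entries; the dashed line marks equal values and coloured points are called. Of the 69 entries, 52 (75.4%, against 75.7% of all tested genes) lie farther from 0 in replicate 1 than in replicate 2, with Hsf2 and Hspbp1 among those far from the line.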

How the data were processed

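RNA from frozen livers was made into stranded mRNA libraries, per the labels' protocols, and the submitters' processing notes name the build GRCm38 (mm10). Aligner, counter and use of strand: not given in the sources used here. The deposited tables hold whole-number read counts per gene (total, unique, exon, intron), TPM and RPKM, per the file headers. Ratios deposited as fractions of reads, and RPKM, were not used. Total reads per gene (89.3% to 90.2% unique) were tested with edgeR 4.0.16 in R 4.3.3: filterByExpr, TMM scaling (factors 0.884 to 1.16), glmQLFit and glmQLFTest with genotype as the only term, and Benjamini-Hochberg adjustment over 13303 genes at a threshold of 0.05. "Rose" and "fell" mark genes past it. The SE is the log2 fold change divided by the square root of F. The biological coefficient of variation was 18.5%. Replicate pairs differed by more than sampling noise (chi-square per degree of freedom 29.7 and 77.3).

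GC content and length came from the longest GENCODE M21 transcript and were found for 98.8% of tested genes. Per-library smooth trends on both (mgcv 1.9.3, with a basis size of 6) served as offsets. The same with the longest protein-coding transcript (any transcript where there is none) was added after the values of the first were seen. Alternatives used DESeq2 1.42.0, limma-voom (limma 3.58.1), other scalings, filters and read classes, and each library left out. On counts simulated for this comparison over 13142 genes, 15.3% of the 1.5-fold, 65.7% of the 2-fold and 100% of the 4-fold changes were recovered, 4 of 119 calls were false, and 0 genes were called when no change was simulated. The simulated counts had no trend with GC content and no library more variable than another. Changes were placed only in genes above a minimum level. The rates therefore need not hold for the real libraries. Named genes are the called members, the 2 most abundant tested members by CPM of each role, Hsf1, Hsf2 and the 12 HSF1 targets. The called partner genes and the 2 partner genes with the highest CPM were also named. Others named, such as untested genes, were chosen after their values were seen. The members and lists were chosen with earlier results of these data known. Tables were made with Python 3.11.15 and pandas 2.3.3. Some items are not reported here.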

Additional observations from a re-analysis of the deposited data

How the results depend on the processing

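The count of chaperone entries called higher was 2. It was 4 with upper quartile scaling, 4 with total exon reads, 18 with library totals alone, 3 with the GC and length offset and 0 to 18 with 1 library left out. The count called lower was 3, and it was 2 with the offset and 0 to 8 with 1 library left out. The offset from the protein-coding transcript, chosen after seeing the data, gave 1 higher and 1 lower. The 5 called genes remained called with DESeq2, limma-voom, unique reads, exon reads, RLE and upper quartile scaling and both other count filters. Over all genes 1640 were called, against 3423 with library totals alone, 1152 with the offset, 1055 with the protein-coding offset and 528 to 5405 with 1 library left out. The median log2 fold change of the tested entries, 0.086, was 0.17 with upper quartile scaling, 0.35 with library totals alone, -0.052 with the offset and -0.044 with the protein-coding offset. For the 29 named genes under 15 alternatives, 33 of 435 values changed sign, all in genes that were not called. With the offset and the protein-coding offset these were Dnaja1 (-0.51 and -0.52), Hsp90aa1 (-0.19 and -0.24), Hspa4 (-0.088 and -0.14), Hspa9 (-0.0056 and -0.064) and Hspb1 (0.038 and 0.045). Dnajc22 was -0.019 with RLE scaling, -0.0082 with DESeq2 and -0.021 with exon reads. With upper quartile scaling and library totals alone, Hspa8 was 0.013 and 0.21, Hspd1 0.025 and 0.22, and Hsph1 0.058 and 0.25. Hspa8 was 0.48 with unique reads. With 1 library left out, values ran from -0.13 to 0.22 for Dnaja1, -0.084 to 0.10 for Dnajc22, -0.0044 to 0.34 for Hsp90aa1, -0.22 to 0.11 for Hspa8, -0.18 to 0.33 for Hspb8, -0.22 to 0.13 for Hspd1 and -0.18 to 0.14 for Hsph1. The cause was not tested. No paired analysis was possible because the labels carry no replicate numbers, and the numbers used here only name the libraries in accession order. A change near 1.5-fold would mostly be missed at this replication, so genes that were not called may still differ.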
